A study of Mus musculus with 34 samples.

Results

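The nuclear genes for the subunits of oxidative phosphorylation were followed complex by complex in mouse hindlimb muscle after late-life or early-life running. Members were the protein-coding genes whose symbols mark them as subunits of complex I (NADH dehydrogenase), II (succinate dehydrogenase), III (cytochrome bc1), IV (cytochrome c oxidase) or V (ATP synthase), together with Cycs, the gene of cytochrome c. The symbol patterns were Nduf followed by a, b, c, s or v, Sdh a to d, Uqcr, Cox4i and Cox5 to Cox8, Atp5 and Cycs. They matched 85 symbols, 2 pseudogenes among them were dropped, and 83 of the 23011 genes of the deposited table remained. Complex I had 35 members, complex II had 4, complex III had 8, complex IV had 18 and complex V had 17, with Cycs as the carrier between complexes III and IV. Ndufa4 and Ndufa4l2 were counted with complex IV, where the Ndufa4 protein is known to sit despite its name. Cyc1, the cytochrome c1 of complex III, and Ndufab1, the acyl carrier of complex I, fall outside the symbol patterns and are described with the related genes.

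Mitochondria move electrons from NADH and succinate through complexes I to IV to oxygen, and the proton gradient made on the way drives ATP synthase. Nuclear genes encode all subunits of complex II and most of those of the other complexes, while a small set is encoded in mitochondrial DNA. Endurance training and slow oxidative fibres are textbook settings of high oxidative capacity, and the transcription factors NRF1, GABPA (NRF2), the oestrogen-related receptors (ERR) and YY1, with the coactivator PGC-1α (Ppargc1a), are known regulators of these genes.

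RNA sequencing covered the soleus, a slow postural muscle, and the plantaris, a fast muscle beside it, of female mice. Aged mice were 24 months old and young mice 6 months old; they were sedentary or had run for 8 weeks on a progressively weighted wheel (PoWeR, a voluntary form of combined endurance and resistance exercise). Wheels were locked for 24 h and food was withheld overnight before the muscles were taken, and sedentary mice matched the runners in age. Each aged sedentary group had 5 libraries and each of the other 6 groups had 4, which makes 34 libraries in 8 groups. Whether each library is a mouse of its own is not stated in the labels. The sample codes of the young libraries carry digits that partly recur under both muscle labels; their meaning is not given, so pooled or shared animals are possible, and no pairing of the young muscles was tested. P-values therefore reflect library-to-library spread that may be technical.

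Library totals lay between 15237626 and 26250461 counts, of which the members held 1.27 to 2.85%. Marker genes matched the assigned muscle in 6 groups. Aged plantaris was assigned by its source, since its titles say soleus. The 7 slow-fibre markers summed to between 39915 and 55174 CPM (the usual depth-scaled count, here with TMM factors) in soleus. In aged plantaris they summed to between 174 and 3456 CPM. The 8 libraries labelled young plantaris had 41006 to 53478 CPM of slow-fibre markers and 20558 to 29689 CPM of 9 fast-fibre markers, against 74649 to 172554 CPM of the latter in aged plantaris. They therefore resembled soleus by these markers, and they are called here the libraries labelled young plantaris. An rRNA repeat gene held under 0.7% of counts in 5 libraries: young soleus PoWeR 3, labelled young plantaris sedentary 3 and labelled young plantaris PoWeR 1, 2 and 4. Aged plantaris sedentary 16 had the highest fast-fibre and the lowest slow-fibre sum (172554 and 174 CPM), and aged plantaris PoWeR 12 the highest sum of 5 adipocyte markers (617 CPM). In bulk muscle, fewer cells of a type and less RNA per cell cannot be told apart.

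Per kilobase of transcript, the catalytic β subunit of ATP synthase, Atp5b, had the highest level of all members. In aged sedentary soleus it stood at 1582 ± 63.4 CPM per kb (SD, n = 5), above Cox6a2, the muscle isoform of subunit 6a of complex IV, at 1256 ± 92.5. The α subunit Atp5a1 followed at 998 ± 48.7 and Cox8b, the muscle isoform of subunit 8, at 911 ± 133.0 CPM per kb. The median member of a complex stood at 167.0 CPM per kb in complex I, 245.0 in II, 347.0 in III, 351.0 in IV and 315.0 in V in that group. Complex I had the lowest median of the 5 complexes in each of the 8 groups, from 92.2 CPM per kb in the PoWeR libraries labelled young plantaris to 193.0 in young sedentary soleus. Cycs was lower than the median of any complex in 8 of 8 groups, from 27.8 to 86.6 CPM per kb. The lowest members were Atp5g2, a minor c-ring gene, at 3.24 ± 1.57 CPM per kb, and paralogues known from other settings: in aged sedentary soleus Cox6b2, the testis isoform of subunit 6b, had 0.543 ± 0.157 CPM per kb, Cox4i2, the lung and hypoxia isoform of Cox4, had 1.76 ± 0.740, and Ndufa4l2, a hypoxia-induced relative of Ndufa4, had 3.84 ± 1.60. Cox6b2 did not pass the filter on low counts, so 82 of the 83 members were tested.

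Muscle isoforms dominated 3 of the subunits of complex IV that exist as a muscle and a widely expressed form. Cox6a2 made up 96.0 ± 0.649% of the Cox6a pair per kb in aged sedentary soleus and 95.0 to 97.2% in the group means. Cox8b made up 93.9 ± 0.569% of its pair there, and Cox7a1 79.1 ± 3.17% of the sum with Cox7a2. In young soleus the mean share of Cox8b was 92.9 ± 0.46% in sedentary and 89.6 ± 2.53% in PoWeR libraries, and that of Cox7a1 was 80.6 ± 0.841% and 75.7 ± 4.41%. The ranges overlapped in both cases, 92.4 to 93.4 against 87.4 to 92.7% for Cox8b and 79.8 to 81.6 against 71.3 to 80.4% for Cox7a1. The libraries labelled young plantaris had lower means of both, 82.1 and 82.0% for Cox8b and 72.3 and 65.5% for Cox7a1 in sedentary and PoWeR libraries. Sedentary 3 alone had 64.4% for Cox8b and 58.8% for Cox7a1. Cox4i1 was at least 99.5% of the Cox4 pair and Ndufa4 at least 98.7% of its pair in every library. Of the 3 genes for the same c-ring peptide of ATP synthase, Atp5g3 held 86.4 to 89.5% per kb in the group means of the young libraries. In those of the aged ones it held 88.8 to 90.3%, and Atp5g2 held at most 1.36% in any group mean. These shares depend on the lengths used, 2676 bp for Atp5g1 and 718 bp for Atp5g3. Without division by length, Atp5g3 held 64.9 to 72.3% and Atp5g1 27.3 to 34.3% in the group means. Cox7a1 was then at 69.4% in aged sedentary soleus and 53.2% in the PoWeR libraries labelled young plantaris.

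**Figure D1:**
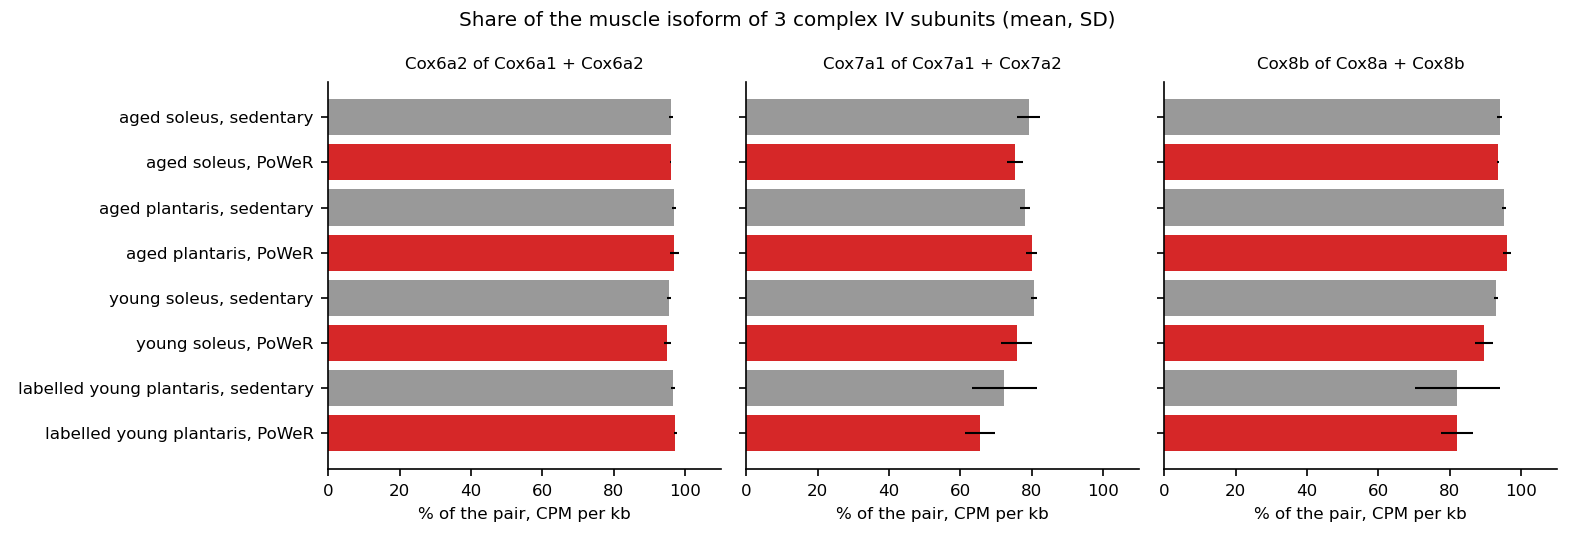
Bars give the mean share of the muscle isoform (% of the pair, from CPM per kb) and lines the SD in 8 groups of 4 or 5 libraries, for Cox6a2, Cox7a1 and Cox8b of complex IV; sedentary groups are grey and PoWeR groups red. Cox6a2 had group means of 95.0 to 97.2%, while Cox7a1 and Cox8b had their lowest means, 65.5 and 82.0%, in the PoWeR libraries labelled young plantaris.

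In young soleus, 8 weeks of PoWeR went with lower expression of most members in every complex. Of 82 tested members 71 fell and 0 rose, against 12.9% of all 14934 genes called in either direction (edgeR quasi-likelihood test, Benjamini-Hochberg adjusted p under 0.05). By complex, 32 of 35 members of complex I fell, 3 of 4 of II, 8 of 8 of III, 14 of 17 of IV, 13 of 17 of V, and Cycs. Median log2 fold changes were close: -0.64 for complex I, -0.59 for II, -0.60 for III, -0.70 for IV and -0.63 for V, beside 0.04 for all genes. In 56 members every PoWeR library lay below every sedentary one, as it did in 8.93% of all genes tested.

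The NADH and succinate entry points were represented by accessory, anchor and catalytic subunits. Ndufb4, an accessory subunit of the membrane arm of complex I (mm10 chromosome 16, 37647170 to 37654453), had 32.2, 44.8, 33.4 and 38.4 CPM in sedentary and 26.6, 16.3, 11.1 and 27.4 CPM in PoWeR libraries. Its groups did not overlap, and its log2 fold change was -0.84 ± 0.21 (SE; edgeR adjusted p = 0.0196). Sdhd, a membrane anchor of succinate dehydrogenase (chromosome 9, 50596357 to 50603812), had 203, 255, 227 and 258 CPM against 167, 124, 91.3 and 167 CPM. The change was -0.74 ± 0.14 (edgeR adjusted p = 0.00504), with the 2 groups apart. Sdha, the flavoprotein that oxidises succinate, did not pass the test at -0.27 ± 0.11 (edgeR adjusted p = 0.119), with 1048, 1014, 998 and 1137 CPM against 1071, 879, 633 and 814.

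In complex III, Uqcr10, a small accessory subunit, fell by 0.84 on the log2 scale (SE 0.17, edgeR adjusted p = 0.00667), from 166, 246, 209 and 199 CPM to 153, 96.0, 68.6 and 130 CPM. The Rieske iron-sulphur protein Uqcrfs1 fell as well (-0.53 ± 0.13, edgeR adjusted p = 0.0139), and so did the core protein Uqcrc1 (-0.53 ± 0.14, edgeR adjusted p = 0.0179). All 3 were called, and differences between the genes were not tested. In complex IV, Cox7b (chromosome X, 106015700 to 106022450) had 421, 492, 410 and 415 CPM in sedentary and 295, 194, 144 and 294 CPM in PoWeR libraries, with no overlap (-0.87 ± 0.16, edgeR adjusted p = 0.00504). The muscle isoforms Cox8b (-0.88 ± 0.22) and Cox6a2 (-0.86 ± 0.20) fell, with edgeR adjusted p of 0.0179 and 0.0125. Cox7a1 missed the threshold at -0.80 ± 0.26 (edgeR adjusted p = 0.0528), with 225 CPM in PoWeR 1 among sedentary values of 212 to 290 CPM. Their widely expressed partners fell too, Cox8a with -0.38 ± 0.12 (edgeR adjusted p = 0.0417) and Cox6a1 with -0.74 ± 0.22 (edgeR adjusted p = 0.0316). Cox8a was at 0.01 with offsets for GC content and length.

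In ATP synthase, Atp5j2, the f subunit of the membrane part (chromosome 5, 145183698 to 145192062), had 253, 338, 273 and 291 CPM in sedentary and 213, 138, 94.1 and 189 CPM in PoWeR libraries (-0.83 ± 0.17, edgeR adjusted p = 0.00716). The catalytic Atp5b had the smallest fold change among the called members of complex V at -0.37 ± 0.12 (edgeR adjusted p = 0.0457), from 2921, 3301, 2923 and 3372 CPM to 2770, 2351, 1734 and 2586. Atp5g1, a c-ring gene, fell by 0.83 (SE 0.20, edgeR adjusted p = 0.0167). Cycs had 165, 217, 179 and 217 CPM against 139, 102, 81.3 and 136 CPM, with no overlap (-0.72 ± 0.14, edgeR adjusted p = 0.00643). Members that did not pass were Ndufa1, Ndufa12 and Ndufs1 in complex I, Sdha in II, Cox4i2, Cox7a1 and Ndufa4l2 in IV, and Atp5e, Atp5g2, Atp5k and Atp5pb in V. Their log2 fold changes ran from -0.91 for Atp5g2, which has under 7 CPM, to 0.07 for Cox4i2, which has under 1.5 CPM.

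The 4 young PoWeR libraries of soleus differed in how far the members were lowered. As the mean log2 level of all members against the sedentary mean, PoWeR 1 stood at -0.26, 4 at -0.46, 2 at -0.82 and 3 at -1.24, while the sedentary libraries ran from -0.17 to 0.22. Each complex had the same order of libraries, for example -0.21, -0.49, -0.70 and -1.08 in complex II and -0.32, -0.37, -0.90 and -1.29 in complex IV. Mitochondrially encoded genes held 17.2, 18.5, 13.5 and 10.7% of counts in PoWeR 1, 4, 2 and 3, against 21.3 to 23.1% in the sedentary libraries. PoWeR 3 also had the low rRNA repeat share (0.423%), and summed adipocyte markers were 107 to 134 CPM in PoWeR and 173 to 216 CPM in sedentary libraries. The count of 71 became 44 without PoWeR 3, 32 without PoWeR 2 and 35 without sedentary 2, and 6 when only the 2 young groups were fitted. With offsets for GC content and transcript length it was 37. The median change stayed negative in these fits, between -0.81 and -0.35. With a term for the low rRNA repeat share, or with PoWeR 3 left out for it, 44 members were called and the median was -0.49. The part of the mitochondrial share and of the adipocyte markers was not tested.

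**Figure D2:**
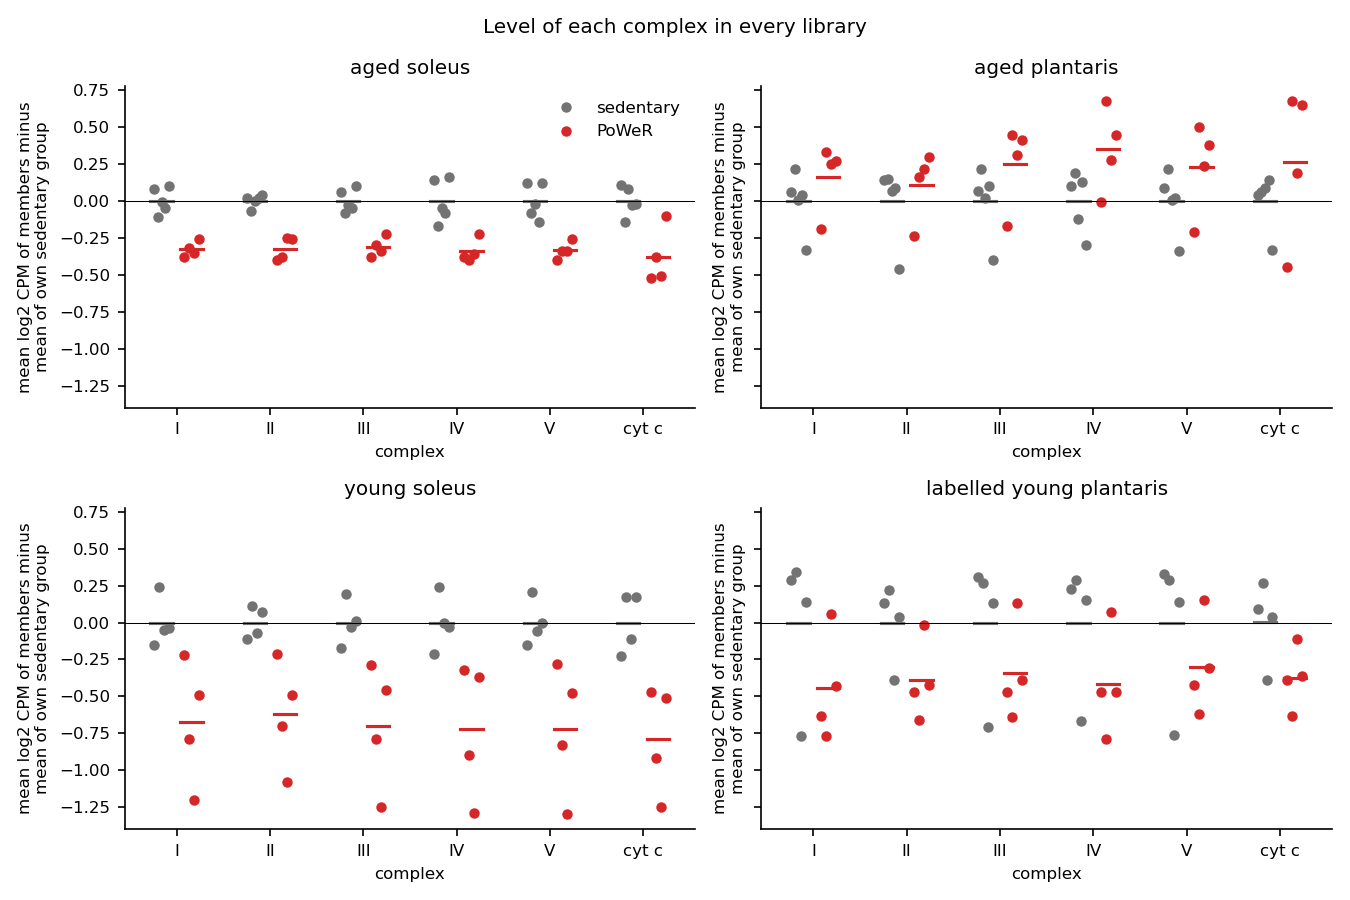
Points are libraries, grey for sedentary and red for PoWeR, and give the mean log2 CPM of a complex's members minus the mean of the sedentary group of the same muscle and age, with group means as bars. Young soleus PoWeR 3 is the lowest in each complex, with -1.08 in complex II and -1.29 in complex IV.

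Promoter sequences were examined for the members that fell in young soleus, since members of all complexes fell there. RefSeq windows of 300 bases (GRCm38.p6, 250 before and 50 after the transcription start) were found for 68 of the 83 members, as 73 windows. A promoter is printed for each complex and for Cycs: that of the called member with the largest fall among those whose window holds a motif. Capitals mark matches to the letters GCGCANGCG (NRF1), CCGGAAG (GABPA), AAGGTCA (ERR) or AAGATGGC (YY1) on either strand. All 6 genes are on the minus strand, and the windows are written 5′ to 3′ along the gene.
Ndufb4, chr16:37654319-37654618: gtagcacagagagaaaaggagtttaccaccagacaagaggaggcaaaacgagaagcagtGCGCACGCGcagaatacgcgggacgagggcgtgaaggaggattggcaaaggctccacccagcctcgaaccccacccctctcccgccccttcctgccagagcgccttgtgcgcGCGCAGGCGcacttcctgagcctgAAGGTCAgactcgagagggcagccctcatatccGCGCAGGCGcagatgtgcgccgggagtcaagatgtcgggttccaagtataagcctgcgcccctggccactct
Sdhd, chr9:50603800-50604099: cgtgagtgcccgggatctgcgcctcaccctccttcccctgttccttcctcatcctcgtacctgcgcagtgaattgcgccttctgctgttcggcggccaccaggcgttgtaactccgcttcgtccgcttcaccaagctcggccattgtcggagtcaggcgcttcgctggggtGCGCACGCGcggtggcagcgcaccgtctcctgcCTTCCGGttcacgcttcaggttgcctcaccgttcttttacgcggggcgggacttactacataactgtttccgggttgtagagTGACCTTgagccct
Uqcr11, chr10:80406772-80407071: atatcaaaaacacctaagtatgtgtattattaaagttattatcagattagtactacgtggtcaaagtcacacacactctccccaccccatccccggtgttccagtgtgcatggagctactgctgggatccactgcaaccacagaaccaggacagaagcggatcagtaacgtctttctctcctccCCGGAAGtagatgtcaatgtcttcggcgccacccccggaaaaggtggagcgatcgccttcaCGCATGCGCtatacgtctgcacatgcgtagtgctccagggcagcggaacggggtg
Cox6a1, chr5:115348909-115349208: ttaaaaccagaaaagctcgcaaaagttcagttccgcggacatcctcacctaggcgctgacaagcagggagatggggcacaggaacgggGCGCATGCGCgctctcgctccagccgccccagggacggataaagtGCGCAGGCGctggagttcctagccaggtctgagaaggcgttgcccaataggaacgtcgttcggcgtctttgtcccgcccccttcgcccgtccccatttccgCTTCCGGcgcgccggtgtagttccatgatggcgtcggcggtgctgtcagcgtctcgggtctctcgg
Atp5j2, chr5:145191492-145191791: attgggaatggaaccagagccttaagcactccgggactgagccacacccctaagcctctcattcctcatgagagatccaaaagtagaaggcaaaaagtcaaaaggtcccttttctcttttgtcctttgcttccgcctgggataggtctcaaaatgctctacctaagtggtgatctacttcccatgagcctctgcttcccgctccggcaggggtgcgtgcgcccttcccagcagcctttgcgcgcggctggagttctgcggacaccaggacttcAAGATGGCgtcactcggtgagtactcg
Cycs, chr6:50566520-50566819: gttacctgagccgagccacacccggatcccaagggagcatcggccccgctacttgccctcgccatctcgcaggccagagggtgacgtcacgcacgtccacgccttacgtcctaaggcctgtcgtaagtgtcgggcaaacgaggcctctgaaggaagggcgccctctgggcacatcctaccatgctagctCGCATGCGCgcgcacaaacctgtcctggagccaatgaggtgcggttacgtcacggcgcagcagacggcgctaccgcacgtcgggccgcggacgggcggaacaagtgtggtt

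The Ndufb4 window holds 3 NRF1 matches and 1 ERR match, that of Sdhd 1 each of NRF1, GABPA and ERR, and that of Uqcr11 1 GABPA and 1 NRF1 match. The first NRF1 run of Cox6a1 is matched once on each strand, so 2 of its 3 NRF1 matches overlap, and the window also holds 1 GABPA match. The Atp5j2 window holds 1 YY1 match, and that of Cycs 1 NRF1 match. Over all members, 22 of 73 windows (30.1%) held the NRF1 letters, against 6.25% of 32851 windows of all genes. GABPA letters were in 23.3 against 8.86%, ERR letters in 11 against 4.72% and YY1 letters in 13.7 against 2.75%. Any of the 4 was found in 57.5% of member windows and 20.2% of all windows. The windows of all genes were not limited to genes tested here or matched for GC content. By complex the share with any motif was 60.6% in I (20 of 33 windows), 100% in II (3 of 3), 60% in III (3 of 5) and 66.7% in V (12 of 18). In IV it was 23.1% (3 of 13 windows), close to that of all genes. Complexes II and III have few windows. YY1 letters occurred in 7 of 33 windows of complex I and 3 of 18 of complex V. Cox8b and Cox7b, at -0.88 and -0.87, held none of the 4 motifs in their windows. Cox6a1 and Cox6b1, at -0.74 and -0.69, held GABPA letters, and so did Cox8a, whose smaller fall is given above. A match is a description of letters and no evidence of binding.

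In aged soleus, fold changes after PoWeR had the same sign but none passed the test. Of 82 members 0 were called by edgeR, where 0.857% of all genes were, and 48 had an unadjusted p under 0.05; DESeq2 called 4 members and limma with quality weights 17. Negative fold changes were found for 81 members, with medians of -0.31 in complex I, -0.32 in II, -0.32 in III, -0.34 in IV and -0.35 in V. In 59 members all PoWeR libraries lay below all sedentary ones, which held for 3.96% of all genes tested. Fitted on the aged soleus groups alone, 24 members were called lower. The main fit shared 1 estimate of spread over the 4 soleus groups. The mean level of all members had an SD of 0.06 in aged PoWeR and 0.10 in aged sedentary libraries. In young libraries the SD was 0.43 in PoWeR and 0.16 in sedentary ones. The counts of called members in young and aged soleus therefore do not measure a difference between the ages.

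Single members illustrate the separation of the aged soleus groups. Sdha had 830, 828, 869, 843 and 844 CPM in sedentary and 657, 629, 659 and 634 CPM in PoWeR libraries, with a gap between the groups (-0.38 ± 0.11, edgeR adjusted p = 0.101). Ndufb3, an accessory subunit of complex I, had 142, 132, 128, 129 and 148 CPM against 96.4, 111, 100 and 99.4 CPM (-0.41 ± 0.12, edgeR adjusted p = 0.104). Uqcrc2, a core protein of complex III, had 522, 487, 526, 507 and 480 CPM against 362, 392, 413 and 422 CPM (-0.34 ± 0.10, edgeR adjusted p = 0.135). In each of these the lowest sedentary library exceeded the highest PoWeR library. Cox7b in complex IV had 388, 343, 339, 295 and 367 CPM against 238, 245, 245 and 255 CPM (-0.49 ± 0.15, edgeR adjusted p = 0.143). Atp5mpl, a small proteolipid of ATP synthase, had 69.9, 80.4, 64.4, 56.1 and 77.0 CPM against 51.7, 50, 47.2 and 52.8 CPM (-0.46 ± 0.14, edgeR adjusted p = 0.122). Cycs overlapped, with 213 to 253 CPM in sedentary and 164, 181, 165 and 220 CPM in PoWeR libraries (-0.36 ± 0.14, edgeR adjusted p = 0.246). Across libraries, the mean level of all members was -0.39, -0.34, -0.35 and -0.24 in PoWeR 10, 12, 14 and 15 and between -0.11 and 0.11 in the sedentary libraries. The mitochondrial share of counts was 10.6 to 13.4% in PoWeR and 13.1 to 14.5% in sedentary libraries, and its part in the result was not tested.

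The age by PoWeR interaction asked whether training changed the members differently in aged and young soleus. No gene was called (0.0% of 14934 genes; 1995 at an unadjusted p under 0.05), and so 0 members, with 7 at an unadjusted p under 0.05 and 0 called by DESeq2 or limma. The interaction was positive in 79 members, with a median of 0.31 on the log2 scale, which is 0.16 without the young library of low rRNA repeat share. Sdhd was at 0.49 ± 0.19 (edgeR adjusted p = 0.292), and Ndufs1, the iron-sulphur core subunit of complex I, was at -0.05 ± 0.13 (edgeR adjusted p = 0.893).

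In aged plantaris the fold changes after PoWeR were mostly positive, and none passed the test. Calls were rare over all genes too: 0.0262% of 15280 genes and 0 of 82 members were called by edgeR, with 8 members at an unadjusted p under 0.05 and 0 called by DESeq2 or limma. Positive fold changes were found for 79 members, and the medians were 0.20 in complex I, 0.11 in II, 0.26 in III, 0.43 in IV and 0.25 in V. No member had all PoWeR libraries above all sedentary ones, where 1.58% of all genes tested did. Cox7b had 238, 289, 245, 256 and 174 CPM in sedentary and 238, 503, 332 and 362 CPM in PoWeR libraries (0.60 ± 0.21, edgeR adjusted p = 0.333). Uqcrb, an accessory subunit of complex III, had 90.5, 112, 87.2, 97.8 and 87.1 CPM against 88.7, 152, 142 and 171 CPM (0.56 ± 0.19, edgeR adjusted p = 0.315). In both, PoWeR 10 lay within the sedentary range while the other 3 PoWeR libraries lay above it. Cycs showed 220, 223, 228, 237 and 171 CPM against 157, 344, 245 and 336 CPM (0.34 ± 0.19, edgeR adjusted p = 0.575).

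Sedentary 16, the library with the highest fast-fibre sum, had the lowest member level of its group at -0.34 against the group mean, with the other 4 between -0.01 and 0.21. PoWeR 12, with 617 CPM of adipocyte, 180 CPM of Schwann cell and 824 CPM of fibroblast markers, had the highest at 0.45. PoWeR 10, 14 and 15 stood at -0.16, 0.26 and 0.35. With sedentary 16 and PoWeR 12 left out, a choice made after seeing the data, the median of all members moved from 0.24 to 0.07. As the lowest sedentary and the highest PoWeR library were dropped, a smaller difference was bound to follow. Mitochondrially encoded genes held 12.4 to 20.2% of counts in PoWeR and 9.18 to 12.7% in sedentary libraries, endothelial markers summed to 209 to 255 against 124 to 178 CPM, and the part of these differences in the result was not tested.

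The muscle by PoWeR interaction compared the training differences of aged soleus and plantaris directly. Its fold changes were negative in 82 of 82 members, with medians of -0.54 in complex I, -0.43 in II, -0.58 in III, -0.68 in IV and -0.58 in V. No gene was called by edgeR (0.0% of 14823 genes; 1785 at an unadjusted p under 0.05), while 66 members had an unadjusted p under 0.05. DESeq2 called 23 members and limma 5. The values with the smallest adjusted p were in complex IV: Cox7b at -1.09 ± 0.23, Cox8b at -1.01 ± 0.21, Cox7c at -0.91 ± 0.19 and Cox6c at -0.83 ± 0.18, each with an edgeR adjusted p of 0.116. Without aged plantaris PoWeR 10, 37 members were called, and without plantaris sedentary 16 and PoWeR 12 the median moved from -0.57 to -0.40 with 0 called.

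**Figure D3:**
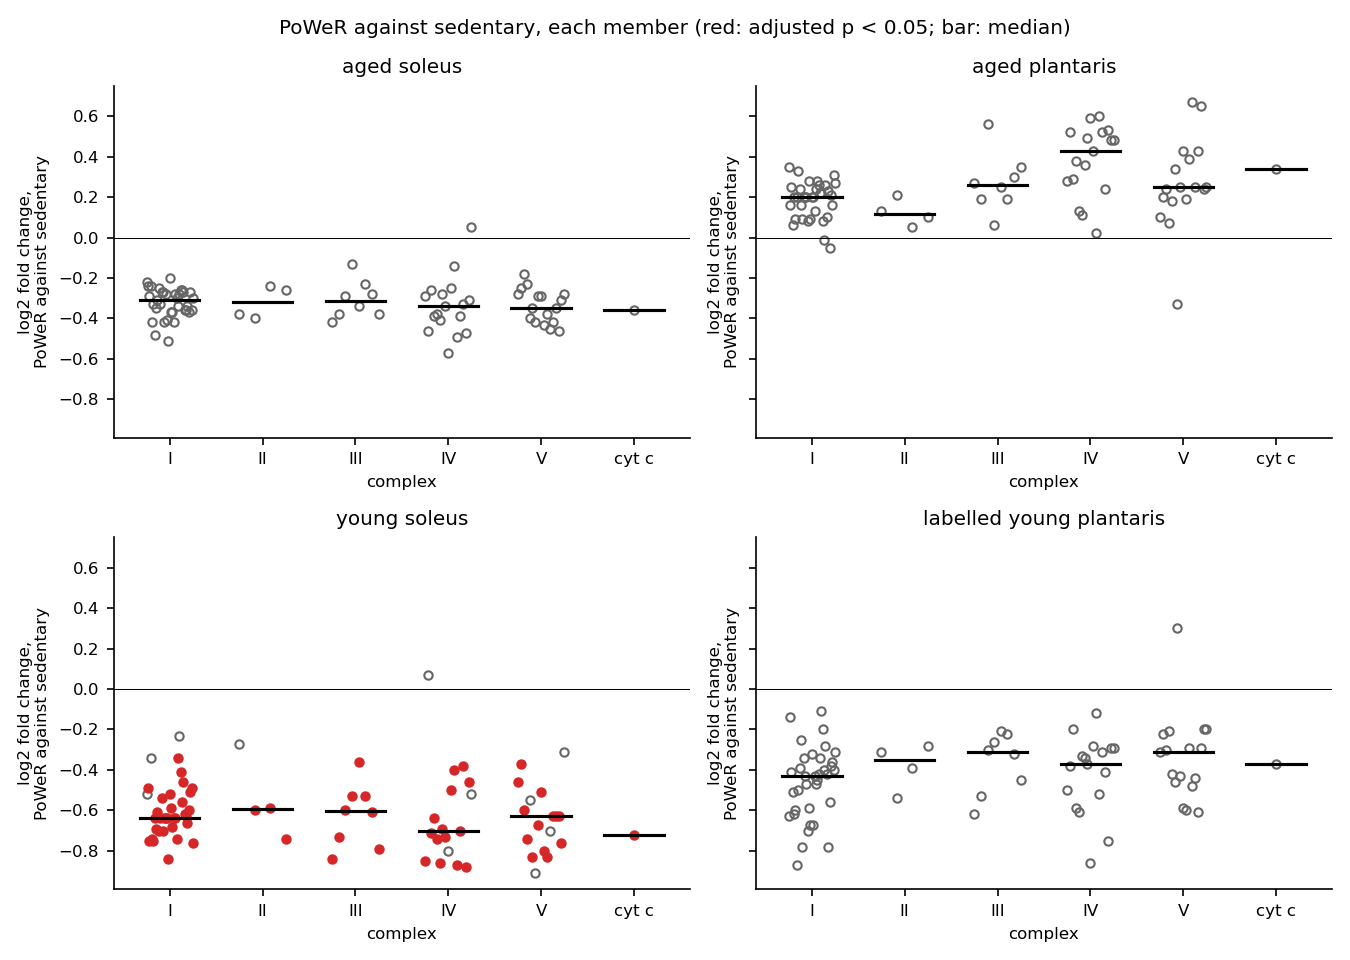
Log2 fold change of each tested member, PoWeR against sedentary, by complex in 4 panels, with called members in filled red and the median as a bar. In young soleus 71 members are called and 1 uncalled member lies above 0, and in aged plantaris 79 of 82 lie above 0 with none called.

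The libraries labelled young plantaris had lower values after PoWeR in most members, without a call. edgeR called 0 of 82 members and 0.223% of 15280 genes, 26 members had an unadjusted p under 0.05, DESeq2 called 0 and limma with quality weights 53. Medians were -0.43 in complex I, -0.35 in II, -0.31 in III, -0.37 in IV and -0.31 in V. Ndufs7, an iron-sulphur subunit of complex I, had the smallest p in complex I, with 137, 132, 91.9 and 120 CPM in sedentary and 74.4, 70.4, 111 and 68.3 CPM in PoWeR libraries (-0.56 ± 0.16, edgeR adjusted p = 0.157). Its groups overlapped through sedentary 3 and PoWeR 3. The level of all members followed the rRNA repeat share: sedentary 3 and PoWeR 1, 2 and 4, with shares of 0.242 to 0.578%, stood at -0.72, -0.53, -0.72 and -0.41, and the other 4 libraries, with 2.73 to 3.71%, between 0.08 and 0.30. With a term for the low share the median of all members was -0.02 in place of -0.40, and with those libraries left out it was -0.15. Without sedentary 3, 11 members were called, and without PoWeR 3, 1 was.

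**Figure D4:**
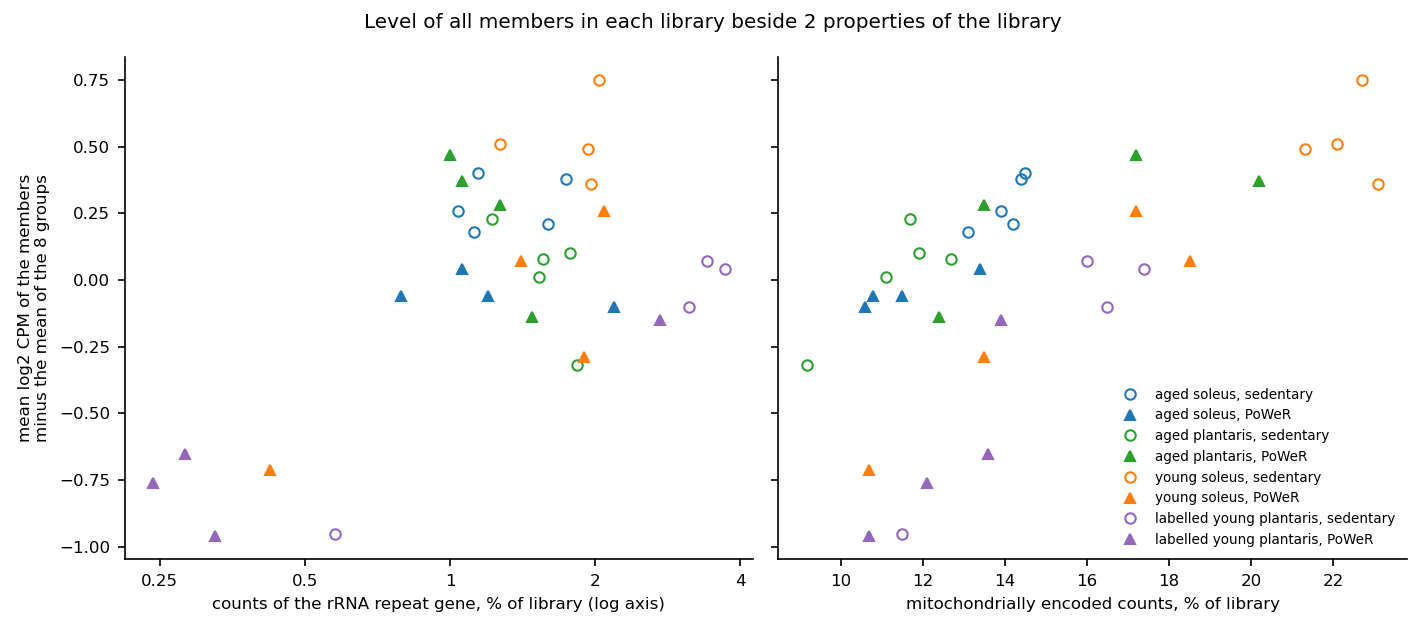
Mean log2 level of all members in each of the 34 libraries, relative to the mean of the 8 groups, against the share of counts in the rRNA repeat gene (%, log axis, left) and in mitochondrially encoded genes (%, right); circles are sedentary and triangles PoWeR libraries. The 5 libraries under 0.7% rRNA repeat lie between -0.96 and -0.65, below the other libraries.

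The share of members higher in aged sedentary soleus than in aged sedentary plantaris was largest in complex IV (70.6%) and smallest, among complexes I to V, in complex I (17.1%). In sedentary mice 26 of 82 members were higher in soleus and 0 lower (31.7%, against 32.9% of all 14823 genes called in either direction). Complex IV had 12 of 17 members higher, complex I 6 of 35, II 2 of 4, III 3 of 8 and V 3 of 17, with medians of 0.49, 0.19, 0.33, 0.30 and 0.27. The share of members called in either direction was thus near that of all genes. All 26 called members were higher, while of the 14823 genes 2524 were called higher and 2347 lower. In 21 members all soleus libraries lay above all plantaris ones, against 12.7% of all genes tested. Without plantaris sedentary 16 the count was 15, and it was 17 without soleus sedentary 12 or 13.

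Both isoforms of subunit 8 were higher in aged sedentary soleus. Cox8a (chromosome 19, 7215153 to 7217616) had 32.5, 31.8, 30.1, 31.6 and 34.8 CPM in soleus and 18.1, 19.2, 13.5, 14.3 and 10.6 CPM in plantaris (1.12 ± 0.19, edgeR adjusted p = 0.000138). Cox8b (chromosome 7, 140898945 to 140900446) had 350, 324, 287, 281 and 397 CPM against 192, 248, 165, 196 and 151 CPM (0.81 ± 0.14, edgeR adjusted p = 9.4e-05). Neither gene overlapped between the muscles. The pair of subunit 6a also differed, Cox6a1 by 0.83 ± 0.21 (edgeR adjusted p = 0.00448) and Cox6a2 by 0.43 ± 0.11 (edgeR adjusted p = 0.00479), as did Cox7a1 by 0.63 ± 0.20 (edgeR adjusted p = 0.0222). Cox4i1 did not pass at 0.26 ± 0.11 (edgeR adjusted p = 0.0915). In complex I, Ndufb3 had 142, 132, 128, 129 and 148 CPM in soleus and 69.7, 89.3, 72.1, 85.5 and 50.5 CPM in plantaris (0.92 ± 0.13, edgeR adjusted p = 1.4e-05). The NADH-binding flavoprotein Ndufv1 was higher by 0.42 ± 0.11 (edgeR adjusted p = 0.00527). In complex II the membrane anchor Sdhc (0.45 ± 0.12, edgeR adjusted p = 0.00559) and the iron-sulphur subunit Sdhb (0.43 ± 0.13, edgeR adjusted p = 0.0138) were higher, while the catalytic Sdha was at 0.06 ± 0.11 (edgeR adjusted p = 0.714). Atp5h, the d subunit of the stalk of ATP synthase, had 146, 145, 157, 131 and 153 CPM against 98.5, 107, 82.7, 95.3 and 68.1 CPM (0.73 ± 0.13, edgeR adjusted p = 0.000243). The muscles did not overlap in Ndufb3 or Atp5h.

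Among PoWeR mice, aged soleus was below aged plantaris in the members that passed the test. In PoWeR mice 28 of 82 members (34.1%) were lower in soleus than in plantaris and 0 higher. Of all 14823 genes 22.5% were called in either direction, 1530 lower and 1810 higher. Complex I had 17 of 35 lower, II 1 of 4, III 2 of 8, IV 3 of 17, V 4 of 17, and Cycs was lower as well; the medians were -0.34, -0.15, -0.27, -0.28 and -0.26 for complexes I to V. Ndufb4 had 17.6, 21.1, 17 and 21.1 CPM in soleus and 27.4, 40.2, 33.1 and 25.3 CPM in plantaris (-0.69 ± 0.16, edgeR adjusted p = 0.00285). Ndufa3, another accessory subunit, had 70.6, 66.0, 58.4 and 65.5 CPM against 81.5, 122, 105 and 108 CPM (-0.66 ± 0.14, edgeR adjusted p = 0.00185). Neither gene overlapped. Atp5mpl had the largest value in complex V at -0.86 ± 0.19 (edgeR adjusted p = 0.0031), but its lowest plantaris library, PoWeR 10 at 50.5 CPM, lay within the soleus range of 47.2 to 52.8 CPM. Sdha, which did not differ past the threshold in sedentary mice, was lower by 0.45 on the log2 scale (SE 0.13, edgeR adjusted p = 0.0140). Cox8a and Cox8b, both higher in soleus in sedentary mice, were at 0.55 ± 0.21 and -0.19 ± 0.15 (edgeR adjusted p = 0.0704 and 0.416). The count was 45 without plantaris PoWeR 10, 14 without 15, 16 without 12, and 18 without soleus PoWeR 12 or 14. It was 9 with the 2 PoWeR groups fitted alone and 17 with GC and length offsets. With a block on the replicate number it was 22, of which 20 were among the 28. The 2 comparisons of the muscles share no library, and the interaction that tests their difference is the one given for training.

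**Figure D5:**
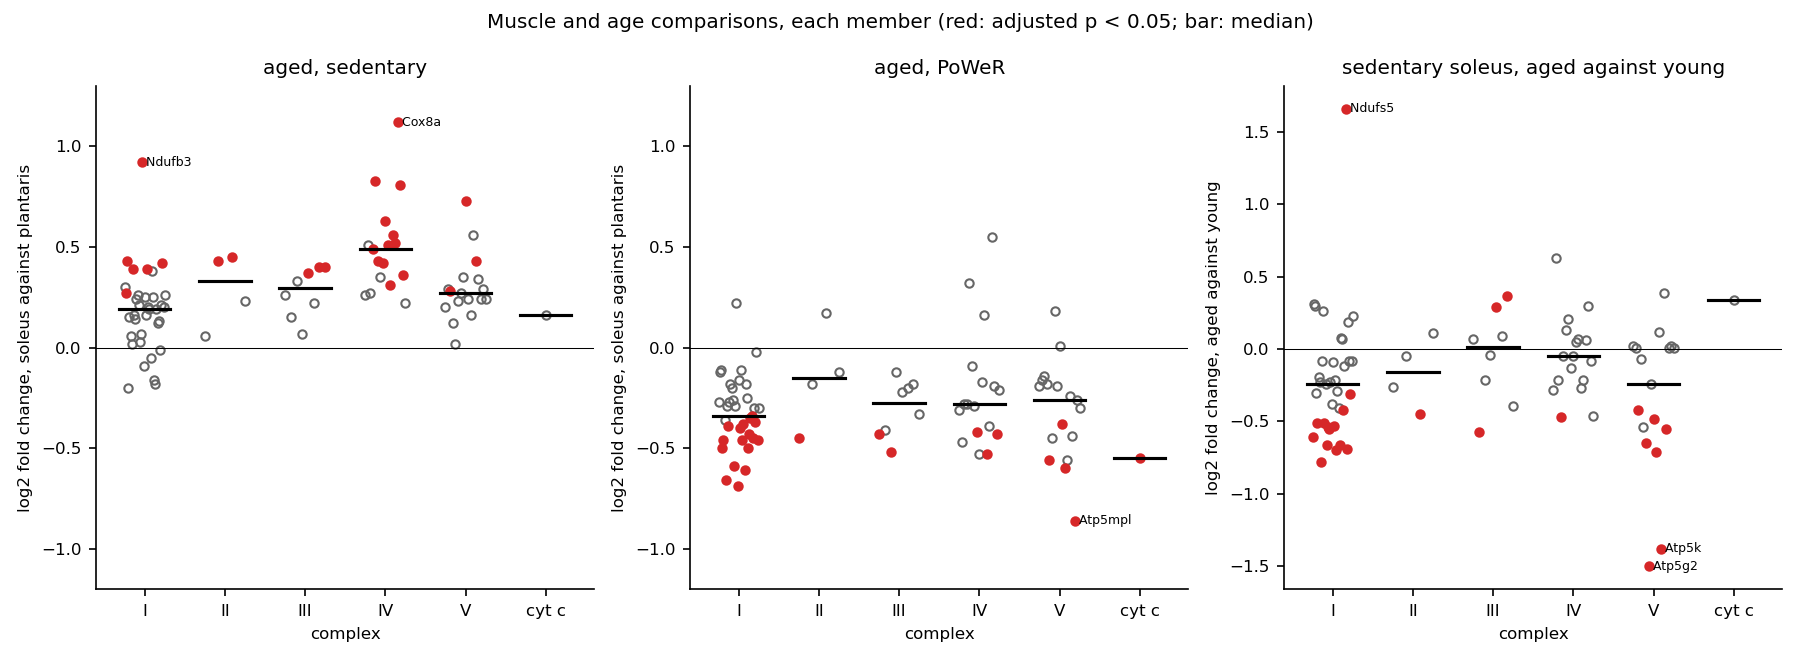
Log2 fold change of each tested member by complex for aged sedentary soleus against plantaris, aged PoWeR soleus against plantaris, and aged against young sedentary soleus, with called members in filled red and medians as bars (the third panel has its own axis). Complex IV has the highest median (0.49) in the first panel, and 75 of 82 members lie below 0 in the second.

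Young soleus also exceeded the libraries labelled young plantaris. In sedentary mice 14 of 82 members were higher and 0 lower. Of all 15132 genes 3.26% were called in either direction, 306 higher and 187 lower. The medians of the members were 0.64 in complex I, 0.43 in II, 0.63 in III, 0.62 in IV and 0.71 in V. In 65 members all soleus libraries lay above all the others, against 9.46% of all genes tested. Atp5g2, a minor c-ring gene, had 4.60, 6.71, 4.71 and 6.62 CPM in soleus and 0.673, 0.305, 0.679 and 0.552 CPM in the other libraries (3.32 ± 0.33, edgeR adjusted p = 4.31e-05). Its level is low, but the groups lie far apart. Atp5md, the k subunit of ATP synthase, had 109, 141, 122 and 124 CPM against 56.1, 54.4, 22.2 and 49.6 CPM (1.44 ± 0.28, edgeR adjusted p = 0.0161). Ndufs5 differed by 1.32 ± 0.26 (edgeR adjusted p = 0.0135) and Cox6c by 1.18 ± 0.28 (edgeR adjusted p = 0.0326). The count was 3 without labelled plantaris sedentary 3 or soleus sedentary 2, 4 and 5 without soleus sedentary 3 and 4, 9 and 7 without labelled plantaris sedentary 2 and 4, 40 with DESeq2, and 34 without the libraries of low rRNA repeat share.

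Between ages, sedentary soleus differed in members of both directions. Aged soleus had 3 members higher and 23 lower than young soleus (31.7%, against 36.2% of all 14934 genes called). The lower ones were 13 of complex I, 7 of V and 1 each of II, III and IV, and the medians were -0.24 in I, -0.15 in II, 0.02 in III, -0.05 in IV and -0.24 in V. The aged and young libraries form separate sets, and age and set cannot be told apart.

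Ndufs5, an accessory subunit of the iron-sulphur fraction of complex I (chromosome 4, 123712710 to 123718202), was the member of complex I called higher in aged soleus, where 13 were called lower and 8 of 35 had positive values. It had 91.1, 80.9, 89.8, 81.3 and 86.8 CPM in aged and 23.3, 34.9, 29.8 and 25.9 CPM in young sedentary soleus (1.66 ± 0.14, edgeR adjusted p = 3.15e-08). In the libraries labelled young plantaris it had 5.92 to 13.8 CPM and in aged plantaris 67.3 to 98.8 CPM, so that no young library reached any aged one. Atp5k, the e subunit of ATP synthase (chromosome 5, 108433244 to 108434448), had 78.3, 60.1, 53.2, 55.2 and 101 CPM in aged and 178, 238, 201 and 136 CPM in young soleus (-1.38 ± 0.23, edgeR adjusted p = 0.000203). Atp5g2 had 3.28, 1.31, 1.80, 0.901 and 2.22 CPM against 4.60, 6.71, 4.71 and 6.62 CPM (-1.50 ± 0.31, edgeR adjusted p = 0.000943). Ndufa5 had 106, 106, 105, 98.8 and 111 CPM against 168, 224, 170 and 189 CPM (-0.78 ± 0.14, edgeR adjusted p = 0.000232). None of these 4 genes overlapped between the ages. Of all 14934 genes tested, 2325 had every aged library above every young one and 2602 had every aged library below. Of the 82 members, 2 and 34 did. Short genes with processed pseudogenes can share reads with their copies, and how the authors counted such reads is not given in the sources used here; the values of Ndufs5, Atp5k and Atp5g2 are uncertain to that extent.

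Several core subunits and the main Cox4 isoform did not pass the threshold between the ages. Sdha was at -0.26 ± 0.11 (edgeR adjusted p = 0.0662), Uqcrc1 at -0.04 ± 0.13 (0.823), Cox4i1 at -0.28 ± 0.18 (0.232), Atp5a1 at 0.02 ± 0.13 (0.935) and Atp5b at 0.01 ± 0.11 (0.935). Ndufv1 was lower (-0.31 ± 0.11, edgeR adjusted p = 0.0323), and so were Sdhc (-0.45 ± 0.12, edgeR adjusted p = 0.00754), Uqcr11 (-0.57 ± 0.17, edgeR adjusted p = 0.0158) and Cox5b (-0.47 ± 0.15, edgeR adjusted p = 0.0229). Uqcrh (0.37 ± 0.14, edgeR adjusted p = 0.0437) and Uqcrc2 (0.29 ± 0.10, edgeR adjusted p = 0.0320) were the other higher members. With GC and length offsets the median over all members was -0.06 in place of -0.20, and with only the 2 groups fitted 45 members were called.

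Genes that work with the members were read from lists by function, beside the shares of all genes called: 12.9% in young soleus, 22.5% between the aged PoWeR muscles, 32.9% between the aged sedentary muscles and 36.2% between the ages. The 13 mitochondrially encoded subunits fell in young soleus in 11 cases, with a median of -0.79, and led with mt-Nd3 at -1.02 ± 0.22 (edgeR adjusted p = 0.0101) and mt-Co3 at -0.98 ± 0.18 (edgeR adjusted p = 0.00504). In aged soleus 0 of 13 were called with a median of -0.40 and 13 negative values, and in aged plantaris 0 of 13 with a median of 0.49 and 13 positive values. Aged PoWeR soleus had 13 of 13 lower than plantaris, with a median of -0.84, and aged sedentary soleus had 13 of 13 lower than young, with a median of -1.10. In aged sedentary mice 1 of 13, mt-Co1, was higher in soleus. The 2 nuclear subunits outside the symbol patterns fell in young soleus, Cyc1 by 0.61 (SE 0.17, edgeR adjusted p = 0.0230) and Ndufab1 by 0.76 (SE 0.16, edgeR adjusted p = 0.00811). Assembly factors, which build the complexes without being part of them, were counted there as well: 5 of 17 for complex I, 1 of 4 for II, 2 of 6 for III, 9 of 24 for IV and 4 of 5 for V fell. Of 14 TCA cycle genes 11 fell (median -0.38), as did 5 of 8 carriers of ADP, ATP and phosphate and creatine kinases (median -0.38).

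Of 19 regulators of mitochondrial biogenesis, training comparisons called 2 in young soleus, 1 in aged soleus and 0 in the other groups, where 12.9% and 0.857% of all genes were called in young and aged soleus. Perm1, a muscle regulator of mitochondrial genes, fell in young soleus from 673 ± 18.1 to 402 ± 58.4 CPM (-0.71 ± 0.14, edgeR adjusted p = 0.00707), and Ppard, a nuclear receptor of fatty acid oxidation, rose there (0.40 ± 0.10, edgeR adjusted p = 0.0149) and in aged soleus (0.45 ± 0.09, edgeR adjusted p = 0.0228). Ppargc1a had values of -0.51 ± 0.29 in young soleus, -0.59 ± 0.28 in aged soleus and -0.49 ± 0.29 in aged plantaris, with edgeR adjusted p of 0.268, 0.403 and 0.599. Nrf1, Gabpa and Tfam were within 0.20 of no change in young soleus and were not called. Between the aged sedentary muscles, where 32.9% of all genes were called, 6 of the 19 regulators were higher in soleus, among them the receptors Esrrb (1.95 ± 0.17, edgeR adjusted p = 4.31e-08) and Esrrg (1.87 ± 0.26, edgeR adjusted p = 2.4e-05), and Polrmt, the mitochondrial RNA polymerase, was lower (-0.48 ± 0.12, edgeR adjusted p = 0.00309). Aged sedentary soleus, in a comparison that called 36.2% of all genes, had less Ppargc1a (-1.05 ± 0.28, edgeR adjusted p = 0.00796), Esrra (-0.59 ± 0.10, edgeR adjusted p = 0.000175), Esrrg (-0.61 ± 0.14, edgeR adjusted p = 0.0025) and Yy1 (-0.24 ± 0.08, edgeR adjusted p = 0.0230) than young soleus, and more Pprc1 (0.84 ± 0.12, edgeR adjusted p = 2.21e-05) and Polrmt (0.43 ± 0.13, edgeR adjusted p = 0.0124).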

How the data were processed

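RNA sequencing libraries of soleus and plantaris were analysed from the table of expected counts per gene that the authors deposited, 34 libraries by 23011 genes. Per the submitters' processing notes, STAR 2.7.3a, DESeq2, Partek and the mm10 build were used; the counting method, its handling of strand and of reads shared between copies are not given in the sources used here. In the deposited expected counts 73.3% of values were exactly whole (no tolerance), and the rest were rounded.

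The members and gene lists were chosen with earlier results of these data known. Counts were scaled with TMM and tested with edgeR 4.0.16 (quasi-likelihood, robust, filterByExpr with a minimum count of 10), in R 4.3.3, with Benjamini-Hochberg adjustment over all genes tested and a threshold of 0.05. Each fit had 1 mean per group and no block: training and age effects were fitted over the 4 groups of a labelled muscle, and comparisons of the muscles over the 4 groups of an age. SE is the fold change divided by the square root of F. Levels per kb use the median length of a gene's CCDS transcripts, and log2 levels add 0.5 to counts. Tables and plots were made with Python 3.11.15, pandas 2.3.3, numpy 2.4.6 and matplotlib 3.10.9. The fitting step was tested on simulated data.

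For each comparison, up to 2 called members per complex with the largest change were named, or that with the smallest p where none was called, with a set of core and paralogous subunits always eligible; the related genes named are the largest changes or known regulators and were chosen after their values were seen. Alternatives were DESeq2 1.42.0, limma 3.58.1, RLE factors, other filters and samples, offsets for GC content and length, a term for a low rRNA repeat share, a replicate block and leaving out each library. Leaving out libraries that stand apart together was chosen after seeing the data. Aged plantaris libraries carry soleus in their titles and plantaris as their source, and the source was followed. Replicate numbers of the aged groups were checked for pairing by correlating deviations from the group mean. In PoWeR mice, same-numbered libraries of the 2 muscles correlated at 0.153, 0.127, 0.109 and 0.198, each the best match of its number. In sedentary mice, 13 to 16 correlated at 0.195, 0.109, 0.114 and 0.128, again the best matches. Number 12 correlated at 0.0239 and matched 15 best. The correlations were low, but the same number matched best in each case except number 12, so the numbers may mark shared mice. The main fits had no block, and their p-values between the muscles ignore any such pairing. With the block, 34 members were called between the sedentary muscles, 25 of them among the 26 of the main fit. The young libraries have no replicate numbers in the labels and were given numbers in deposit order, which pair nothing. No 2 libraries were identical.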

Additional observations from a re-analysis of the deposited data

Results flagged for a closer look

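In groups of 4 or 5 libraries, the highest or lowest library was called far from the others when its gap to the nearest divided by the range passed Dixon's 95% critical value. Over 82 tested members this picked 76 of 656 member-by-group cases. For a single case chance picks about 1 in 20. Members of the same library are not independent, so the total cannot be compared with that rate. The labelled young plantaris library sedentary 3 was low in 29 members, aged plantaris sedentary 16 in 20 and aged plantaris PoWeR 10 in 9, while labelled young plantaris PoWeR 3 was high in 6.

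The mean log2 level of all members in labelled young plantaris sedentary 3 was -0.95 relative to the mean of the groups. Its Cox6a2 stood at 303 CPM, Cox7a1 at 43.2, Cox8b at 24.4 and Atp5g3 at 118 CPM, each far below the other 3 libraries. It is also the sedentary library of that group with the low rRNA repeat share (0.578%).

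Aged plantaris sedentary 16 was far below the other 4 libraries of its group in subunits of each complex. It had 239 CPM of Ndufv1, 600 of Sdha, 287 of Uqcrfs1, 11.9 of Cox6a1, 1671 of Atp5a1, 1964 of Atp5b, 81.8 of Atp5g1 and 191 CPM of Atp5g3, and 171 CPM of Cycs. Its summed fast-fibre markers were the highest of the group (172554 CPM).

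Aged plantaris PoWeR 10 was low in Uqcrfs1 (365 CPM) and Cox6a2 (581 CPM). Labelled young plantaris PoWeR 3, the library of its group with an rRNA repeat share of 2.73%, was high in Ndufv1 (389 CPM), Uqcrc1 (690 CPM), Cox7a2 (71.0 CPM) and Cox8a (29.4 CPM). Aged soleus sedentary 13 was low in Sdhb (428 CPM), Cox4i2 (0.435 CPM) and Atp5a1 (2256 CPM). Aged soleus PoWeR 10 stood apart in Ndufa4l2, at 1.57 CPM.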

How the results depend on the processing

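The sign of the median over all members was kept in each comparison under each alternative run. The counts of called members moved more, and the cause was not tested. Each main fit shared 1 estimate of spread over its groups, and the soleus groups differed in spread. The part of this in the counts was not tested. In aged soleus the count of 0 became 4 with DESeq2, 17 with limma, 1 with GC and length offsets, 8 with a term for the low rRNA repeat share and 24 with only the groups compared. In young soleus, 71 became 37 with the offsets, 44 with the term, 44 without the library of low share, and 6 with only the groups compared; leaving out each library gave 32 to 79. Cox8a there turned to 0.01 with the offsets.

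In the libraries labelled young plantaris limma called 53, the median with the term was -0.02, and leaving out each library gave 0 to 11. For the aged sedentary muscles, 26 became 17 without the filter, and 15 to 32 with each library left out. For the aged PoWeR muscles, 28 became 17 with the offsets, 9 with only the groups compared, and 14 to 45 with each library left out. For young soleus against the libraries labelled plantaris, 14 became 40 with DESeq2, 41 with limma, 8 without the filter, 43 with the term and 34 without libraries of low share, and 3 to 13 with each library left out. Between ages, 26 became 45 with only the groups compared. The muscle by PoWeR interaction called 23 with DESeq2 and 5 with limma, and 0 to 37 with each library left out.

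With a replicate block that joined the 2 muscles of a number, 22 members were called between the aged PoWeR muscles and 34 between the sedentary ones. Numbers of the sedentary muscles correlated between 0.0239 and 0.195. This block left 0 in the muscle by PoWeR interaction. In the aged training comparisons the block joined sedentary and PoWeR libraries of the same number, and 0 were called. Those libraries come from different mice and correlated between -0.111 and 0.0768, so that block is no check of the training comparisons. Precision was limited by 4 or 5 libraries a group, and the lowest tested member, Cox4i2, had an SE of 0.48 in young soleus.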
